A study of Bos taurus with 90 samples.

Results

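SLC39A4 (ENSBTAG00000046026) encodes ZIP4, a zinc importer of the plasma membrane, and is 1 gene of the 24616 counted in liver biopsies of Charolais (CH) and Holstein-Friesian (HF) steers. It was chosen by its measured difference between low and high residual feed intake (RFI) in the CH steers fed zero-grazed grass, so that difference is a description with no test, and those 6 libraries stand on neither side of any contrast of the gene that is tested here. RFI is the feed a steer eats beyond or below what its weight and growth predict, and a low RFI marks a feed-efficient animal. The 90 RNA-Seq libraries came from the end of 3 feeding phases that each steer met in the same order. H1 and H2 were the first and second high-concentrate phases, with rolled barley at 860 g/kg, soya bean meal and molasses at 60 g/kg each and minerals and vitamins at 20 g/kg beside restricted grass silage. ZG was the zero-grazed grass phase between them. The paper states that the steers were fed grass silage between H1 and ZG and grazed grass between ZG and H2. The CH groups held 9 low and 11 high RFI steers under H1, 3 and 3 under ZG, and 9 and 8 under H2. The HF groups held 7 low and 9 high RFI steers under H1, 10 and 8 under ZG, and 5 and 8 under H2. Steers were ranked for RFI within breed and within each phase, so that a steer could change its RFI group. Because all steers passed through the phases in 1 order, diet cannot be told apart from age or from the time of sampling.

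ZIP4 carries zinc from outside the cell into the cytosol, together with the other members of the ZIP (SLC39) family, while the ZnT (SLC30) family moves zinc out of the cytosol and metallothioneins bind it. The protein is best known from the small intestine, where it takes up dietary zinc and where its loss causes acrodermatitis enteropathica, an inherited zinc deficiency. In zinc shortage its messenger RNA is stabilised and the protein gathers at the cell surface. The liver is a main site of zinc exchange with blood, and it takes up zinc in the acute phase response mainly through another family member, ZIP14.

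Expression was low in this tissue. Between 2 and 513 reads fell on SLC39A4 per library, with a median of 67.5, from libraries of 9097695 to 63621304 counted reads. In counts per 1000000 reads after TMM scaling (CPM), its level ranged from 0.221 to 19.2, with a median of 4.0 over the 90 libraries. Liver transcripts were present throughout, with FGG (fibrinogen gamma chain) at 5700 CPM or more, complement C5 at 916 or more and coagulation factor F5 at 492 or more in every library. These 3 genes were chosen after their values were seen. SLC39A4 varied more between steers of a group than most genes did. Its SD within the 12 groups was 0.94 on the log2(CPM + 0.5) scale, against 0.33 for the median of the 13945 genes that passed the filter on low counts, and 97.7% of the 2082 genes within 1.5 times its mean level had a smaller SD. Its level showed a Spearman rho of 0.191 with library depth over the 90 libraries. In bulk liver, fewer cells that make this RNA and less RNA per cell cannot be told apart.

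With the RFI groups pooled, the medians were lower in each later phase in both breeds. They were 6.95 CPM in CH and 5.79 in HF under H1, 3.95 and 3.56 under ZG, and 2.00 and 1.70 under H2. Neighbours in this order did not differ beyond their spread, since each gap between the means on the log2 scale was at most 0.71 of the pooled SD. Within the RFI groups, a lower median in each later phase was seen only in low RFI HF steers. Their medians were 5.54, 3.77 and 1.49 CPM under H1, ZG and H2. In the same order of phases, high RFI HF steers had 6.04, 1.77 and 1.81 CPM. In CH the low RFI steers had 8.68, 1.5 and 2.00 CPM and the high RFI steers 6.77, 8.20 and 2.03. The means were 7.68 ± 3.75 CPM (SD, n = 20) in CH and 5.69 ± 2.09 (SD, n = 16) in HF under H1, 4.78 ± 4.03 (SD, n = 6) and 4.31 ± 4.6 (SD, n = 18) under ZG, and 2.67 ± 2.5 (SD, n = 17) and 1.92 ± 1.22 (SD, n = 13) under H2. Among the 12 groups of breed, diet and RFI, the highest medians were 8.68 CPM in low RFI CH steers under H1 and 8.20 in high RFI CH steers under ZG. The lowest were 1.5 CPM in low RFI CH steers under ZG and 1.49 in low RFI HF steers under H2.

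**Figure D1:**
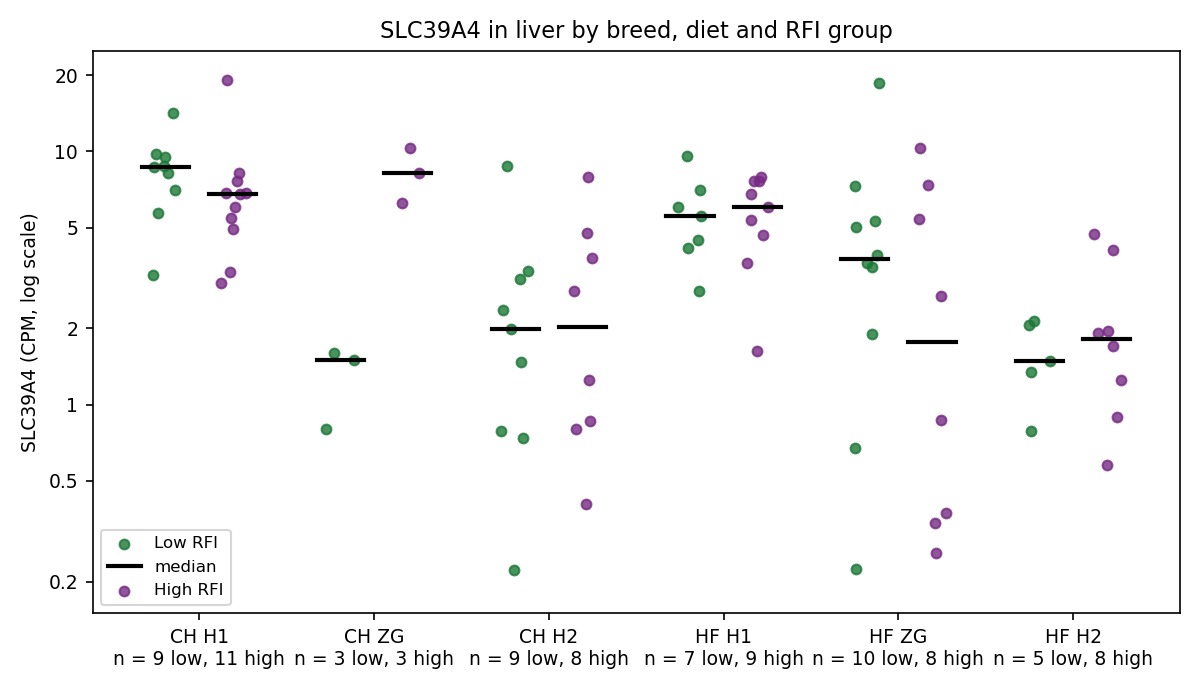
SLC39A4 in liver, in CPM on a log axis, with 1 point per library and a bar at the median of each breed, diet and RFI group. H1 libraries sit between 1.64 and 19.2 CPM, ZG libraries spread from 0.224 to 18.6, and the H2 medians are all near or below 2.03.

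Under ZG in CH, the comparison that chose the gene, the low RFI steers 788, 357 and 1831 had 0.804, 1.5 and 1.61 CPM, and the high RFI steers 437, 307 and 1816 had 6.29, 8.20 and 10.3 CPM. The groups did not overlap. The log2 fold change of low over high RFI was -2.65 (SE 0.34), which is 6.26-fold lower in the low RFI steers. In this comparison 0% of 13025 genes were called by edgeR at an adjusted p under 0.1, a share from which nothing is read about the gene. The low RFI values rested on 17, 41 and 28 reads and the high RFI values on 178, 183 and 374. Both levels also occurred in HF steers on the same diet, whose libraries ranged from 0.224 to 18.6 CPM across both RFI groups. Leaving out each of the 6 steers in turn gave log2 fold changes from -2.83 to -2.40.

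The same RFI contrast outside those 6 libraries did not show a difference in SLC39A4. Under H1 in CH, low RFI steers ranged from 3.26 to 14.2 CPM with a median of 8.68, and high RFI steers from 3.01 to 19.2 with a median of 6.77. The groups overlapped, and the log2 fold change was 0.24 (SE 0.28, 95% interval -0.34 to 0.82, adjusted p = 0.767 from edgeR), where 0.0155% of 12920 genes were called. Under H2 in CH, low RFI steers ranged from 0.221 to 8.73 CPM (median 2.00) and high RFI steers from 0.405 to 7.91 (median 2.03). The log2 fold change there was -0.19 (SE 0.58, 95% interval -1.39 to 1.01, adjusted p = 0.998 from edgeR), with 0% of 12417 genes called. Without steer 454, the highest of the low RFI steers at 8.73 CPM, it was -0.63 (adjusted p = 0.589 from edgeR).

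Nor did the test call it in HF. Under H1 the low RFI steers ranged from 2.81 to 9.63 CPM and the high RFI steers from 1.64 to 7.92, with a log2 fold change of -0.01 (SE 0.27, 95% interval -0.58 to 0.57, adjusted p = 0.996 from edgeR) and 0% of 13025 genes called. Under ZG the 10 low RFI steers ranged from 0.224 to 18.6 CPM with a median of 3.77 and the 8 high RFI steers from 0.26 to 10.3 with a median of 1.77. The direction was opposite to that in CH under ZG, but the interval was wide, with a log2 fold change of 0.53 (SE 0.72, 95% interval -0.96 to 2.03, adjusted p = 1 from edgeR) and 0% of 12492 genes called. The edgeR estimate rested on steer 5612 at 18.6 CPM, without which it was 0.01 (adjusted p = 1 from edgeR). The difference in mean log2(CPM + 0.5), low minus high RFI, was 0.66 with this steer and was not computed without it. Under H2 the low RFI steers 2220, 1657, 1797, 5612 and 2071 had 0.787, 1.35, 1.49, 2.06 and 2.15 CPM, all within the range of 0.579 to 4.73 of the 8 high RFI steers. The log2 fold change was -0.43 (SE 0.42, 95% interval -1.32 to 0.45, adjusted p = 1 from edgeR), with 0% of 12549 genes called.

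With the 84 libraries outside CH under ZG in 1 fit, the RFI effect on SLC39A4 was 0.08 on the log2 scale (SE 0.23, 95% interval -0.38 to 0.54, adjusted p = 1 from edgeR), where 0% of 13424 genes were called. In the 47 HF libraries it was 0.09 (SE 0.33, 95% interval -0.58 to 0.76, adjusted p = 1 from edgeR), with 0% of 13146 genes called. Without the ZG library of steer 5612 these became -0.03 and -0.12 (adjusted p = 1 from edgeR for each). Exact permutation tests of the difference in mean log2(CPM + 0.5), two-sided, gave p = 0.316 and p = 0.822 in CH under H1 and H2, and p = 0.977, p = 0.344 and p = 0.605 in HF under H1, ZG and H2. Adjusted over the 11 contrasts so tested, these were between 0.541 and 0.977. Whether the RFI effect differs between breeds or diets was tested for 5 pairs that hold no CH library under ZG, and none passed (lowest adjusted p = 0.87 from edgeR, for HF minus CH under H1). The difference between the RFI effect in CH under ZG and the others was not tested, because the gene was chosen for it.

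**Figure D2:**
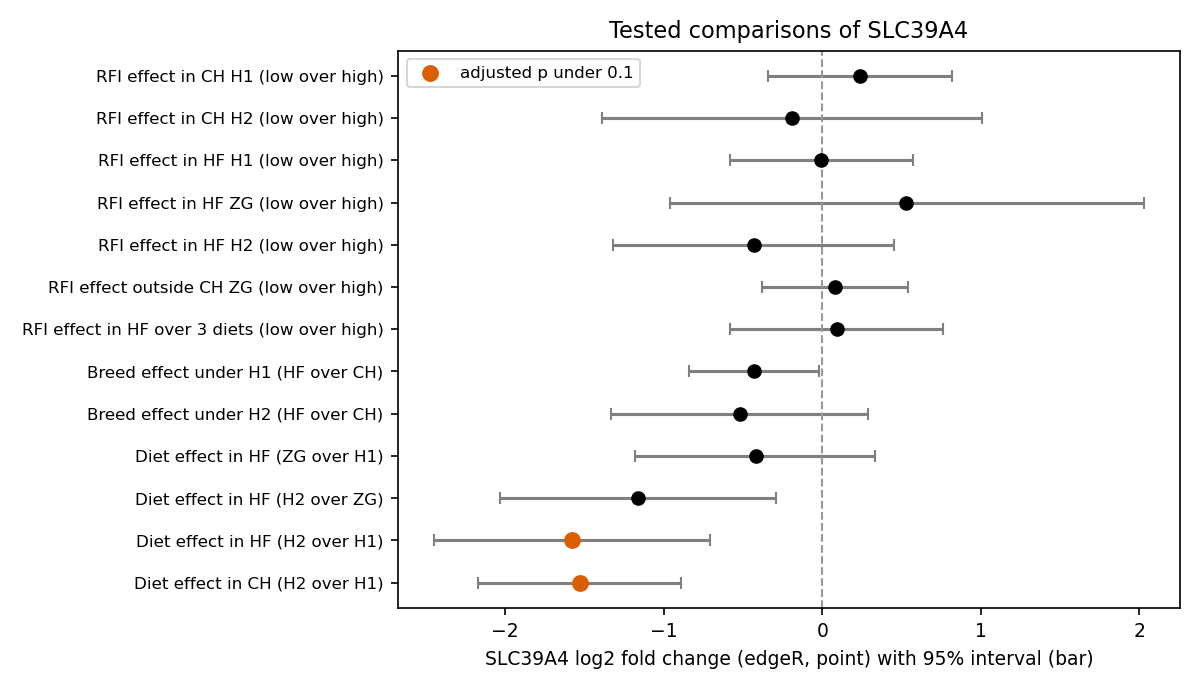
Log2 fold changes of SLC39A4 from edgeR (points) with 95% intervals (bars) for each tested contrast of RFI, breed and diet, none of which holds a CH library under ZG. The contrasts with an adjusted p under 0.1, in orange, are H2 over H1, at -1.53 in CH and -1.58 in HF.

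In neither tested breed contrast was SLC39A4 called, though the intervals leave room for a lower level in HF. Under H1 the HF steers had a lower mean (5.69 against 7.68 CPM), with ranges of 1.64 to 9.63 in HF and 3.01 to 19.2 in CH that overlapped. The log2 fold change of HF over CH was -0.43 (SE 0.20, 95% interval -0.84 to -0.02), with an unadjusted p of 0.0408 and an adjusted p of 0.312 from edgeR, and a permutation test gave p = 0.073. This is short of the threshold, in a contrast where 4.26% of 13207 genes were called. Under H2 the log2 fold change was -0.52 (SE 0.40, 95% interval -1.33 to 0.29, adjusted p = 0.968 from edgeR), with 0.59% of 12717 genes called. Under ZG, where 0.0152% of 13155 genes were called, the difference between breeds was -0.06 (SE 0.79), given as a description because the 6 CH libraries chose the gene.

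The fall from H1 to H2 passed the test in both breeds. In CH the level ranged from 3.01 to 19.2 CPM under H1 (median 6.95) and from 0.221 to 8.73 under H2 (median 2.00), and 11 of 17 libraries under H2 lay below every library under H1. The log2 fold change was -1.53 (SE 0.32, 95% interval -2.17 to -0.89, adjusted p = 9.96e-05 from edgeR), which is 2.89-fold lower under H2. In HF the level ranged from 1.64 to 9.63 CPM under H1 (median 5.79) and from 0.579 to 4.73 under H2 (median 1.70), and 6 of 13 libraries under H2 lay below every library under H1. The log2 fold change was -1.58 (SE 0.43, 95% interval -2.45 to -0.71, adjusted p = 0.0029 from edgeR), or 3.00-fold lower. Permutation tests gave p = 2e-05 in each breed, the smallest that 100000 resamples can give where the smaller tail is doubled, and 0.00011 after adjustment over the 11 contrasts. They shuffled libraries freely, although 4 steers of each breed gave a library to both phases, so these p-values are approximate. Falls of this kind were common. Of all genes tested, 68.9% were called between H1 and H2 in CH, 32.7% as lower under H2, and in HF 61.8% were called, 30.5% as lower. The falls in the 2 breeds differed by -0.06 on the log2 scale (HF minus CH, SE 0.42, 95% interval -0.90 to 0.77, adjusted p = 1 from edgeR).

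The grass phase was the least uniform. In HF, ZG over H1 gave a log2 fold change of -0.42 (SE 0.38, 95% interval -1.18 to 0.33, adjusted p = 0.351 from edgeR), in a contrast where 58.3% of 13146 genes were called. Without steer 5612 it was -0.71 (adjusted p = 0.0802 from edgeR) and passed the threshold. H2 over ZG gave -1.16 (SE 0.43, 95% interval -2.03 to -0.29, adjusted p = 0.139 from edgeR), where 5.05% were called. Both intermediate steps depended on the test, since limma-voom with the steer as a replicate block gave -0.77 for ZG over H1 (adjusted p = 0.023) and -1.04 for H2 over ZG (adjusted p = 0.0172), and without the block it gave -0.77 (adjusted p = 0.0241) and -1.0 (adjusted p = 0.0231). The permutation test gave a difference of -0.89 for ZG over H1 (adjusted p = 0.103) and -0.52 for H2 over ZG (adjusted p = 0.511), and edgeR without steer 5612 gave -0.89 for H2 over ZG (adjusted p = 0.23). Within the ZG phase, 7 of 24 libraries lay under 1 CPM and 10 lay over 5 CPM. Under H1 none of 36 libraries lay under 1 CPM, and under H2 9 of 30 did. The SD on the log2 scale was 0.61 under H1, 1.39 under ZG and 0.91 under H2, a difference in spread that was not tested. These figures for ZG include the 6 CH libraries that chose the gene. In HF alone, 6 of 18 libraries under ZG lay under 1 CPM and 7 lay over 5 CPM. The SD in HF was 0.57 under H1, 1.45 under ZG and 0.65 under H2. In CH, ZG over H1 was -0.77 (SE 0.48) and H2 over ZG was -0.76 (SE 0.47), as descriptions, where 21.7% and 5.07% of 13475 genes were called.

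The lowest libraries held few reads. Steer 493 (CH, low RFI, H2) had 2 reads on SLC39A4, with an exact 95% Poisson interval of 0.242 to 7.22, and steers 5635 and 2069 (HF, ZG) had 3 reads each, with an interval of 0.619 to 8.77. These intervals cover counting error only. At the other end stood steer 854 (CH, high RFI, H1) with 19.2 CPM and steer 5612 (HF, low RFI, ZG) with 18.6 CPM from 363 reads.

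Steers sampled in more than 1 phase allowed the comparison within an animal. A library from H1 and another from H2 was at hand for 8 steers, and all 8 were lower under H2 (4 CH and 4 HF). In CH, steer 1100 went from 7.03 to 1.25 CPM, steer 1320 from 6.84 to 0.862, steer 307 from 6.77 to 3.37 and steer 364 from 7.67 to 3.78. In HF, steer 2071 went from 7.62 to 2.15 CPM, steer 2101 from 7.92 to 1.70, steer 2220 from 4.47 to 0.787 and steer 5632 from 5.54 to 1.92. The mean change was -1.65 ± 0.56 (SD, n = 8) on the log2(CPM + 0.5) scale, with an exact two-sided sign-flip p of 0.00781, the smallest that 8 steers allow. This test was chosen after the data were examined.

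Through the grass phase the steers took different courses. Steer 307 had 6.77 CPM under H1, 8.20 under ZG and 3.37 under H2, being high, high and low in RFI. Steer 5632 had 5.54, 1.89 and 1.92 CPM, being low, low and high. Among the other CH steers with a grass library, steer 1816 went from 14.2 CPM under H1 as a low RFI steer to 10.3 under ZG as a high RFI steer, and steer 1831, low in both, from 9.51 to 1.61. Among HF steers, 2065 stayed near its level, with 5.38 and 5.30 CPM under H1 and ZG, and 2069 was the lowest of the HF steers under H1 (1.64 CPM) and the lowest of the high RFI HF steers under ZG (0.26 CPM). A steer's standing in its group was not detectably carried over between phases. The first and last libraries of 12 steers outside CH under ZG, as deviations from the mean of their breed and diet, had a Pearson r of 0.35 (permutation p = 0.263) and a Spearman rho of 0.26 (permutation p = 0.416), both 0.416 after adjustment over these 2 relations, and r was -0.30 without the 2 steers farthest from the median of the first deviation.

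**Figure D3:**
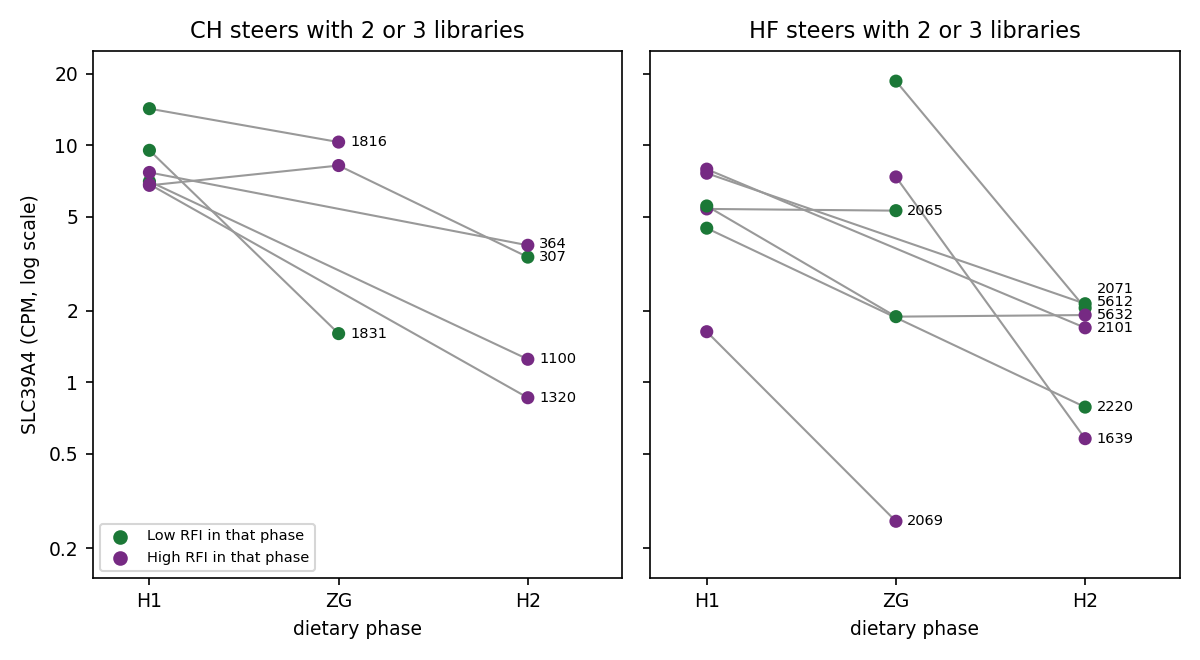
SLC39A4, in CPM on a log axis, in the steers with libraries from more than 1 phase, with CH and HF in separate panels. Lines join the libraries of a steer and colours give its RFI group in that phase. Each line that reaches H2 from H1 ends lower than it began.

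A library-wide pattern moved with SLC39A4. The first principal component is the weighted sum of genes that carries the most variance between libraries, and it was taken from the 84 libraries outside CH under ZG with SLC39A4 left out. It held 41.7% of their variance, and its sign was set so that the score rises with SLC39A4. As deviations from the means of their groups, SLC39A4 and the score on this component had a Pearson r of 0.841 and a Spearman rho of 0.793 over the 84 libraries (permutation p = 1e-05 for each, the smallest that 100000 resamples can give where absolute values are compared), and r was 0.818 without the 2 libraries farthest from the median score. These permutations treated the 84 libraries as exchangeable, although steers recur. The spread also differed, with an SD of the score of 9.65 in HF under H1 and 44.73 in HF under ZG, so the p-values are approximate. How many other genes reach such an r with the score was not computed, so the relation is not shown to be particular to SLC39A4. In the same deviations, 19.7% of the 13944 other genes had a rho to SLC39A4 over 0.5 and 9.77% under -0.5. With 1 library per steer number, r was 0.836 and rho 0.774 over 70 libraries, for which no p was computed. Within the sets of a breed and diet, rho was 0.553 in CH and 0.485 in HF under H1, 0.816 and 0.846 under H2, 0.913 in HF under ZG, and 0.771 in the 6 CH libraries under ZG. The mean score was 28.86 under H1, -14.92 under ZG and -23.20 under H2, so that the score and the diets moved together.

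In CH under ZG the score also separated the RFI groups. It was -67.46, -7.28 and 1.98 in the low RFI steers 788, 357 and 1831, and 13.85, 16.56 and 27.15 in the high RFI steers 1816, 307 and 437. Among the other libraries, steer 5635 (HF, ZG) had the lowest score, -111.22, with 0.224 CPM, and steer 493 (CH, H2) the next, -98.99, with 0.221 CPM. The highest score, 45.16, was that of steer 364 (CH, H1), whose 7.67 CPM was near the median of its set, while steer 5612 (HF, ZG) had a score of 36.28 with 18.6 CPM. With the score as a covariate, chosen after the data were examined, the log2 fold change of low over high RFI in CH under ZG was -2.23 and the RFI effect over the 84 other libraries was 0.06 (adjusted p = 0.971 from edgeR). The diet contrasts against H1 did not keep their direction with it, and those of H2 over ZG did. H2 over H1 became 0.07 in CH (adjusted p = 0.914) and 0.32 in HF (adjusted p = 0.466), and ZG over H1 in HF became 0.68 (adjusted p = 0.0224), all from edgeR. H2 over ZG was -0.36 in HF (adjusted p = 0.331 from edgeR) and, as a description, -0.09 in CH. The score itself was lower under ZG and H2 than under H1, so that it also takes up diet differences. Because it separated the RFI groups in CH under ZG, a fit to those 6 libraries can hardly tell RFI from the score. The value of -2.23 is a description only. What the component reflects was not tested.

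**Figure D4:**
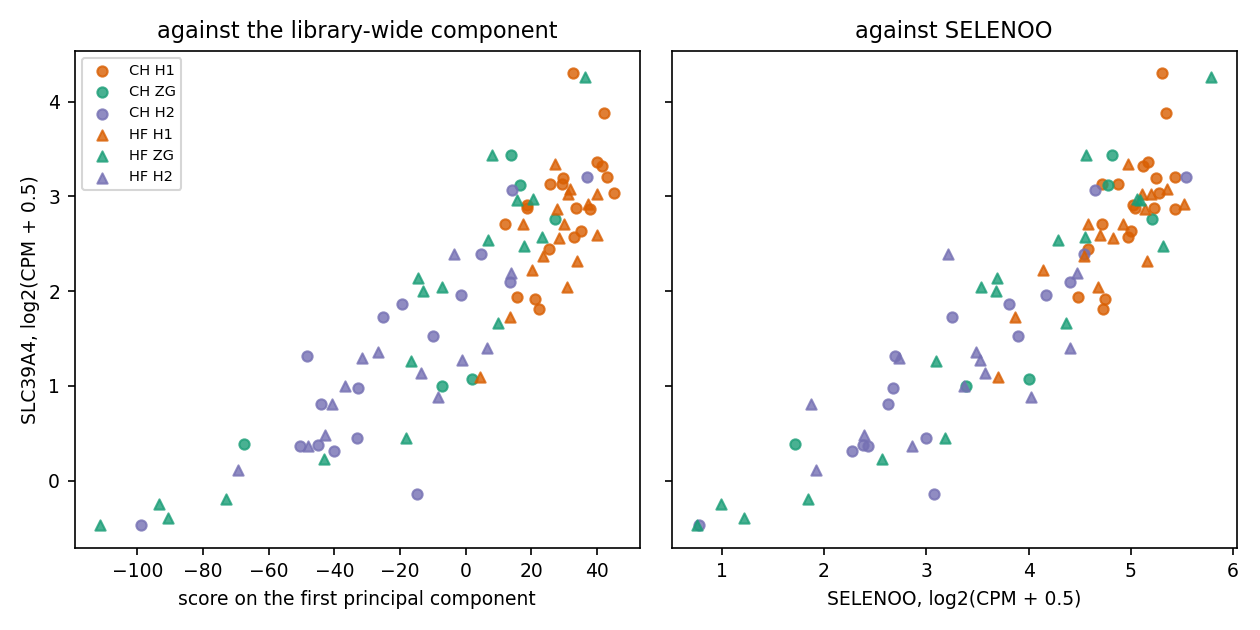
SLC39A4 as log2(CPM + 0.5) against the score on the first principal component (left) and against SELENOO as log2(CPM + 0.5) (right), with 1 point per library, colours for diets and symbols for breeds. SLC39A4 rises with both, the libraries of H1 sit at the upper right, and those of ZG and H2 reach down to the lowest values.

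Many genes shared the pattern of SLC39A4. Over the 90 libraries, 24.4% of the 13944 other genes had a Spearman rho to it over 0.5 and 21.2% had a rho under -0.5, as descriptions without a test. The genes with the highest rho were ENSBTAG00000008480 and ENSBTAG00000046996 at 0.906 each, whose identifiers carry no name in the sources used here. The fifth, SELENOO, which encodes a mitochondrial selenoprotein, had a rho of 0.899. SELENOO stood at 15.6, 9.94 and 2.79 CPM in the low RFI CH steers 1831, 357 and 788 under ZG, and at 26.9, 27.7 and 36.5 in the high RFI steers 307, 1816 and 437, in the same order as SLC39A4 among the low RFI steers and in another order among the high RFI steers. Among deviations from group means, CAPN15, a calpain family protease, was most like SLC39A4 (rho 0.847, and 0.885 over the 90 libraries). The lowest were ENSBTAG00000001700 at -0.834 over the 90 libraries and ENSBTAG00000009278 at -0.757 in deviations.

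A pair of genes near SLC39A4 on its chromosome could be named, both from the study's lists of differentially expressed genes. TONSL, which encodes a protein of replication fork repair, has 1 protein-coding gene between it and SLC39A4 in RefSeq's ARS-UCD2.0 annotation, and had a rho of 0.819 over the 90 libraries. PPP1R16A, which encodes a regulatory subunit of protein phosphatase 1, lies with 7 such genes between and had a rho of 0.84. By rho, TONSL ranked 473 and PPP1R16A 274 among the 13944 other genes, so many genes were more like SLC39A4. Whether position on the chromosome plays a part was not tested. PPP1R16A was low, with a range of 0 to 5.5 CPM over the 90 libraries. In the low RFI CH steers 788, 357 and 1831 under ZG, TONSL had 0.473, 1.39 and 2.12 CPM, and in the high RFI steers 437, 307 and 1816 it had 1.84, 2.02 and 2.53, so that its groups overlapped. PPP1R16A had 0.189, 0.807 and 1.09 CPM against 3.50, 2.56 and 2.12 in the same order, with no overlap. Genes nearer to SLC39A4 were not matched to a row of the counts and were not analysed here.

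Other genes of the comparison in CH under ZG were set beside SLC39A4 in the libraries outside it. Of genes with an unadjusted p under 0.05 in that comparison, the 955 that were lower in low RFI steers had a median rho of 0.696 to SLC39A4 among deviations from group means in the 84 other libraries, and 82.1% of them had a rho over 0.5. The 799 that were higher had a median rho of -0.378 and 0% over 0.5. Over all 13021 genes in both tables, from which the sets of 955 and 799 were taken, the median was -0.043 and the share 20.7%. These values describe how the genes vary between libraries of the same group, and genes are not independent replicates. Both sets were picked with the same 6 libraries that chose SLC39A4, in a comparison where 0% of 13025 genes were called. The score on the first principal component also separated the RFI groups in those libraries. The difference in rho between the sets is therefore a description, from which nothing is read about SLC39A4 or RFI.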

How the data were processed

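Liver RNA was sequenced by the authors as single-end reads, trimmed with cutadapt, aligned to UMD3.1 with STAR and counted per Ensembl gene, and the raw counts were deposited. The counting setting for strand is not given in the sources used here. Symbols came from the 352 identifiers that the study names in its lists of differentially expressed genes, so a gene outside those lists carries no symbol here, and the members and lists were chosen with earlier results of these data known. Of the zinc transporter and metallothionein lists, 1 gene (SLC39A4) was among the named identifiers, so those lists and the cell type markers were not analysed here.

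Each contrast was fitted over all genes with edgeR 4.0.16 in R 4.3.3 (filterByExpr, TMM, robust quasi-likelihood, Benjamini-Hochberg), and genes were called at an adjusted p under 0.1. The edgeR fits of the tested contrasts were also run on simulated counts, and the other steps were not. Diet and breed fits held the RFI group as a covariate. The 3 diets of HF shared 1 fit. Alternatives used DESeq2 1.42.0 and limma 3.58.1. Permutation tests and figures used Python 3.11.15 with scipy 1.17.1, numpy 2.4.6, pandas 2.3.3 and matplotlib 3.10.9.

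Library totals had a median of 18858293 reads. Within a group, replicates are separate steers. Steer numbers in the labels pair libraries across phases: 14 numbers recur within a breed, and the deviations from group means of such pairs had a median correlation of 0.242 over 18 pairs (-0.489 to 0.523). Steer 1797 is labelled CH under H1 and HF under H2. Besides SLC39A4, genes were named for the highest and lowest Spearman rho to it over the 90 libraries and over deviations from group means, or for lying near it on its chromosome, and identifiers without a name were held to 2 in each direction. Sequences were not used here.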

Additional observations from a re-analysis of the deposited data

Results flagged for a closer look

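A pair of libraries stood apart in SLC39A4 by Dixon's test on CPM at its 95% limit, among 9 groups of 4 to 10 libraries. Chance gives about 1 in 20 only if the values are normally distributed, which was not shown for CPM. The test was not run on the log2 scale. The group of 11 high RFI CH steers under H1, which holds the highest library at 19.2 CPM, was outside this size range. Steer 454, a low RFI CH steer under H2, had 8.73 CPM from 73 reads while the other 8 steers of its group had at most 3.37. Steer 5612, a low RFI HF steer under ZG, had 18.6 CPM while the other 9 steers had at most 7.30, and its library under H2 had 2.06 CPM. Their scores on the first principal component were 36.89 and 36.28, and SELENOO stood at 46.0 and 54.6 CPM in them, the highest of their groups. None of the 6 differences between effects in breeds or diets passed the test (lowest adjusted p = 0.87 from edgeR).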

How the results depend on the processing

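The fall from H1 to H2 kept its direction and its call under each of the 7 other tests, scalings, filters and steer settings, in each breed, with log2 fold changes from -1.86 to -1.53 in CH (adjusted p at most 0.000168) and from -1.80 to -1.55 in HF (adjusted p at most 0.00563). For ZG over H1 in HF, limma-voom passed the threshold without a replicate block (-0.77, adjusted p = 0.0241) and with the steer as a replicate block (-0.767, adjusted p = 0.023), as did the permutation test with a pseudocount of 0.1 (-1.14, adjusted p = 0.0818), and the adjusted p over all 7 such fits ran from 0.023 to 0.402. For H2 over ZG in HF, DESeq2 (-1.15, adjusted p = 0.0959), all 12 groups in one fit (-1.19, adjusted p = 0.0798), whose estimate of the spread includes the CH libraries under ZG, and limma-voom without (-1.0, adjusted p = 0.0231) and with the block (-1.04, adjusted p = 0.0172) passed, in a range of 0.0172 to 0.187, while the permutation test did not with any pseudocount (-0.52, adjusted p = 0.511, with 0.5, -0.48, adjusted p = 0.584, with 0.1, and -0.44, adjusted p = 0.25, with 2). With the block the RFI effect over the HF libraries was -0.00103 (adjusted p = 1), against 0.00538 from limma-voom without it (adjusted p = 0.999). No call differed between limma-voom with and without the block. The cause of the differences between tests was not tested.

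Leaving out each steer in turn gave -0.568 to -0.184 for RFI in HF under H2 and -2.83 to -2.40 in CH under ZG. Alternatives chosen after the data were examined changed more. Without steer 5612 under ZG, the RFI effect was -0.0341 over 84 libraries and -0.117 in HF, without steer 454 it was 0.00476 over 84 libraries, and ZG over H1 in HF without steer 5612 was -0.71 and H2 over ZG -0.894 (adjusted p = 0.23). With the score on the first principal component as a covariate, RFI gave -2.23 in CH under ZG, 0.138 in CH under H2 and 0.0694 in HF under H1, ZG over H1 gave 0.683 in HF and 0.19 in CH, H2 over H1 gave 0.322 in HF and 0.0655 in CH, and H2 over ZG kept its direction at -0.361 in HF and -0.0941 in CH. The score differs between diets, so this covariate also takes up diet differences by its construction. It also separated the RFI groups in CH under ZG, so the -2.23 is a description that can hardly tell RFI from the score. Fits with at least 10 counts in every library gave no value where SLC39A4 had fewer. Depth limits the lowest libraries, in which 2 or 3 reads were counted.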
